A study of Ovis aries and Bos taurus with 10 samples.

Results

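The genes described here steer membrane vesicles between the compartments of a cell. They were chosen by symbol in the chip annotation, as the RAB genes with a number, ARF1 to ARF6, the numbered ARL, SNX and VPS genes, and the subunits of the adaptor complexes AP-1 to AP-4. There were 117 of them among the 9155 genes with a symbol of their own, on 157 of 13292 probe sets. Each gene was read on its brightest probe set over the arrays of captured cells. Names of partner proteins came in with the rule (RAB3IP, RAB11FIP2, RAB11FIP5, RAB3GAP1, RAB3GAP2, ARL6IP1, ARL6IP5 and ARL14EP), as did VPS72, a chromatin subunit in spite of its name.

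Rab, Arf and Arl proteins are small GTPases that act as switches. Loaded with GTP they sit on one membrane and recruit coats, motors and tethers there, and the exchange factors and activating proteins that turn them on and off set where this happens. Adaptor complexes gather cargo into coated vesicles, AP-1 between trans-Golgi and endosomes, AP-2 at the plasma membrane, AP-3 on the way to lysosomes and related organelles and AP-4 at the trans-Golgi. Sorting nexins and the VPS proteins sort the cargo that reaches endosomes, back to the Golgi or the surface through retromer and retriever, or into the lysosome through the ESCRT machinery and the HOPS tether. A growing oocyte lays down its zona pellucida and stores cortical granules through this traffic, and in the mouse Rab11a vesicles and Rab27a are known for their work in the oocyte cortex.

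Oocytes and the granulosa cells (GC) around them were cut by laser capture microdissection from ovaries of newborn lambs, at the primordial, primary and secondary stages of the follicle. In this order the oocyte arrays are called PDO, PMO and SECO, and those of GC are called PDG, PMG and SECG. Every array held 1 pool, from 2 animals at the primordial, 4 at the primary and 2 at the secondary stage, amplified through 2 rounds of T7 transcription and labelled with the Arcturus turbo kit (protocol P3). Whole ovine fetal ovary at 132 days post coitum was labelled by P3, by P2 (2 rounds, then the Affymetrix labelling) and by P1 (1 standard Affymetrix cycle), and bovine fetal ovary at 8 months post coitum by P1. All 10 samples were hybridized to a bovine chip, so that 9 of the 10 arrays carried RNA of another species than the probes, and no group had a second array. No protein, promoter or probe sequence of the genes was used here.

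The values are MAS 5.0 signals in arbitrary units. A gene was called detected on an array where its signal reached the limit set by that array's share of present calls, which lay between 45.8 and 74.2 on the captured arrays and between 28.9 and 44.7 on the fetal ovary arrays. The median signal of all probe sets lay between 28.4 and 36.8 on the captured arrays. The number of arrays limits the precision. The labelled cell types were only partly borne out by their markers. Of 10 oocyte markers on the chip 8 were detected on all 3 oocyte arrays and 8 on all 3 GC arrays, and their summed signal overlapped (3225 to 8499 on oocyte and 3302 to 6078 on GC arrays). At every stage 3 of the 10 (ZP3, MAEL and OOEP) were brighter in oocytes and 0 in GC. AMH, KITLG, FOXL2, FSHR and CYP19A1 of 11 granulosa markers were detected on no captured array, and the list summed to 348 to 941 on oocyte and 833 to 2984 on GC arrays. Of those detected, FST and INHA were brighter in GC at every stage, and 0 in oocytes. In the paper, qPCR on captured samples gave a significant difference between the cell types for each known marker tested. The summed signal of 7 stroma markers was 4429 to 15764 on oocyte and 12701 to 47110 on GC arrays, and that of 6 smooth muscle markers 1457 to 2294 on oocyte and 3367 to 9387 on GC arrays. TAGLN and DES, which are defining markers of smooth muscle, were detected on none of them.

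Most of the traffic genes were seen in both cell types. Of the 117 genes, 93 were detected on at least 1 captured array and 52 on all 6. Only AP3S2, RAB3C and RAB40B were detected on oocyte arrays alone, and AP4M1, RAB11FIP2, RAB19, VPS18, VPS52 and VPS4B on GC arrays alone, VPS4B on 2 arrays and the others on 1. AP3S2 was the single one of these 9 that was detected on all 3 arrays of its cell type. The limits differed between arrays, so detection on 1 cell type alone does not mean a higher signal there. VPS52 was detected at 55.9 on SECG but not at 58.5 on PMO, and VPS4B at 49.02 on PDG but not at 57.6 on SECO. RAB3C was detected at 57.2 on PDO but not at 57.8 on PMO. The 24 genes detected on no captured array included the secretory RAB27B and RAB3B, the epithelial RAB25, 4 tethering subunits (VPS11, VPS39, VPS53 and VPS54) and VPS26B. The number of traffic genes detected was 69 to 82 on oocyte arrays and 69 to 82 on GC arrays. These detection counts were not made over all genes, so they do not show a trait particular to the traffic genes.

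AP3S2 is a small subunit of the AP-3 adaptor and was the one traffic gene detected on all 3 oocyte arrays and on no GC array. Its signal was 73.9, 113 and 89.01 on the oocyte arrays PDO, PMO and SECO, against 45.4, 4.19 and 19.8 on the GC arrays PDG, PMG and SECG. The 3 oocyte values lay above every GC value and above the detection limit of their arrays, while all 3 GC values were not well above background. The PDG value of 45.4 lay just under the PDG limit of 45.8, so that detection on no GC array rests on a narrow margin. The share of all genes with this pattern was not counted. The limma difference, oocyte minus GC, was 1.48 ± 0.42 (SE) on the log2(signal + 20) scale (adjusted p = 0.406), and since it rests on GC values that were not well above background it gives no exact size. With each GC value raised to the detection limit of its array, oocytes were at least 1.48-fold higher, from the means of log2(signal + 20). A second AP3S2 probe set did not show it, with 50.2, 40.1 and 18.1 on oocyte arrays and 55.2, 34.98 and 1.495 on GC arrays, a difference of 0.29 and a detection on 1 array only. On the fetal ovary the 2 probe sets differed further, since P1 ovine ovary gave 36.3 on the first and 528 on the second. Without the primary stage the AP3S2 difference was 0.99, and with the mean of both probe sets it was 0.88.

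**Figure D1:**
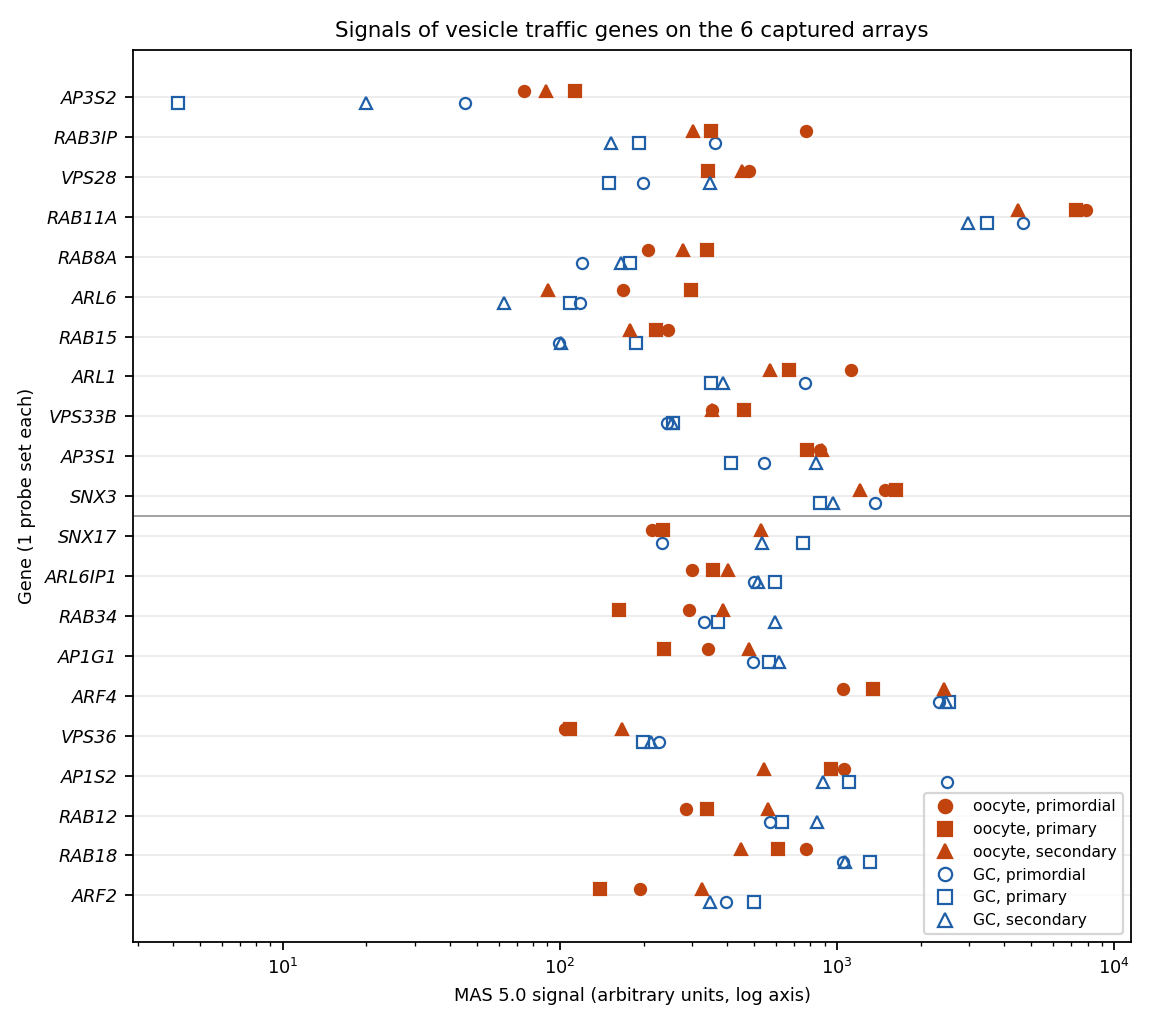
MAS 5.0 signal (log axis, arbitrary units) of 21 traffic genes on the 6 captured arrays, 1 point an array, with filled points for oocytes, open points for GC and the shape for the follicle stage. AP3S2 stands at the top, the genes above the line were brighter in oocytes at every stage and those below it in GC, and the oocyte points of RAB8A and VPS33B lie clear of the GC points.

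A gene was called expressed when its mean of log2(signal + 20) over the 6 captured arrays reached that of a signal of 100, which held for 55 of the 117 traffic genes and 3353 of all genes. AP3S2 was under this limit. Of the 55, 12 (21.8%) were brighter in oocytes at all 3 stages, against 21.6% of all expressed genes. Another 16 (29.1%) were brighter in GC at all 3 stages, against 19.1% of all expressed genes. With the mean of all probe sets of a gene it was 10 of 47, where 18.2% of all expressed genes did so. With a stricter measure, 3 of the 55 had every oocyte array above every GC array, where 8.23% of all genes did, and 8 had every oocyte array below every GC array, where 8.86% of all genes did. The median difference was -0.054 (quartiles -0.37 and 0.34) for the 55 genes and 0.049 for all genes. None of the 55 reached a mean difference of 2-fold, against 5.61% of all expressed genes. A lower signal can mean fewer cells of a type in the pool or less RNA per cell, and these cannot be told apart in pooled RNA.

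No traffic gene passed the test. In the linear model of limma with stage and compartment, 0 of 93 tested traffic genes had an adjusted p under 0.05, as 0% of all 11642 probe sets did. An unadjusted p under 0.05 was found for 12 of the 93 and for 1295 of the 11642. The 3 stages of a cell type stood in for replicates, which left 2 residual degrees of freedom. Differences between the cell types are therefore given below as the values of 3 pairs of arrays. With an intensity trend in the variance the model called 10 probe sets in all and 0 traffic genes.

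**Figure D2:**
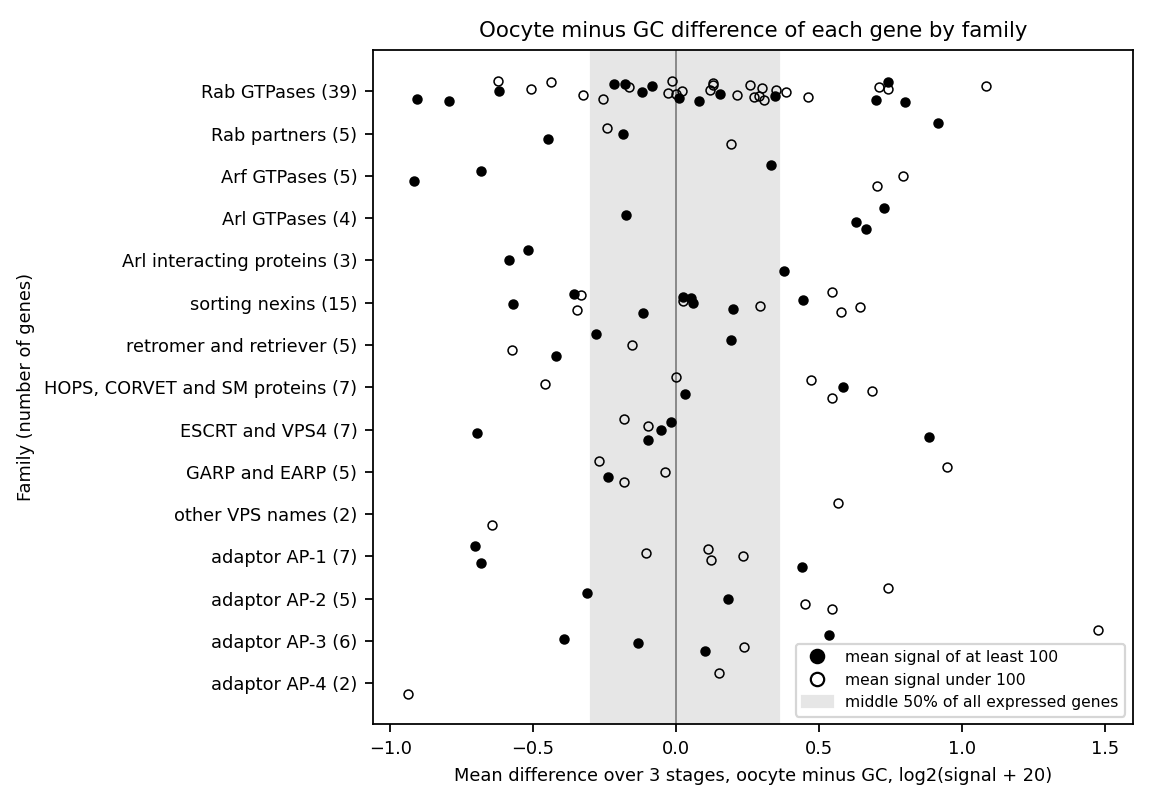
Mean difference of each of the 117 genes between oocytes and GC over the 3 stages (oocyte minus GC, log2(signal + 20)), 1 point a gene, by family with the number of genes in brackets. Filled points are the 55 expressed genes, open points the other genes, and the grey band holds the middle 50% of all 3353 expressed genes; the Rab GTPases spread on both sides of 0 and AP3S2 is the point at the far right.

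Among the 39 Rab GTPases, 14 were expressed, 4 of them brighter in oocytes at every stage and 3 in GC. RAB11A, the Rab of recycling endosomes, had the brightest probe set, although signals of different probe sets do not rank genes by abundance. Its signal was 7889, 7259 and 4493 on PDO, PMO and SECO, against 4693, 3469.7 and 2959 on PDG, PMG and SECG. Each oocyte array was above the GC array of its stage, but SECO lay below PDG, so that the groups overlapped. The difference was 0.80 ± 0.31 (adjusted p = 0.423, limma). Its close relative RAB11B had 751, 895 and 1160.2 on oocyte arrays and 633, 898 and 1155 on GC arrays, a difference of 0.080.

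RAB8A, which carries cargo to the plasma membrane and the cilium, had 207, 339 and 276 on oocyte arrays, against 119.9, 179 and 166 on GC arrays. All oocyte values were above all GC values, with a difference of 0.74 ± 0.30 (adjusted p = 0.430, limma). A second RAB8A probe set gave 0.13. Its paralog RAB8B gave 69.6, 80.4 and 29.4 on oocyte arrays and 71.4, 152 and 83.2 on GC arrays. RAB3IP (Rabin8) is the exchange factor that loads RAB8 with GTP and is itself brought to membranes by RAB11. It had 771, 350.1 and 302 on oocyte arrays, against 363, 192 and 153 on GC arrays. This was the largest difference among the expressed traffic genes in the oocyte direction, 0.92 ± 0.30 (adjusted p = 0.412, limma), with similar sizes at the 3 stages (1.04, 0.80 and 0.90). PDG lay above PMO and SECO, so that the groups overlapped. On their brightest probe sets RAB11A, RAB3IP and RAB8A were each brighter on the oocyte array of each stage, as 21.6% of all expressed genes were. The second RAB8A probe set did not hold to this, with 64.03 on PMO and 67.3 on PMG. RAB8B was under the limit for expressed genes and under the detection limit on SECO. On its brightest probe set it was brighter on the GC array of each stage. Its other probe set did not show this, with 90.04, 73.1 and 43.96 on oocyte arrays and 46.0, 52.4 and 64.6 on GC arrays, a difference of 0.23. RAB11B changed its sign between stages.

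RAB15, a Rab of endosomal recycling, had 245, 222 and 178 on oocyte arrays and 98.6, 188 and 101 on GC arrays. PMG lay above SECO, so that the groups overlapped, and the difference was 0.70. RAB27A, which docks secretory and lysosome-related organelles, had 179, 210.0 and 225 on oocyte arrays and 165, 156 and 148 on GC arrays. The groups did not overlap but lay close, with a difference of 0.35 ± 0.31. RAB4B, chosen after its values were seen, is a Rab of fast recycling and was under the limit for expressed genes. Its signals of 81.99, 145 and 134 on oocyte arrays and 25.9, 26.5 and 107 on GC arrays were detected on all 3 oocyte arrays and on SECG, while PDG and PMG were under the detection limit, so that its difference has no exact size.

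On the GC side, RAB18, a Rab of lipid droplets and the endoplasmic reticulum, had 771, 610.4 and 450.4 on oocyte arrays and 1045, 1312 and 1070 on GC arrays. Every GC value was above every oocyte value, and the difference was -0.91 ± 0.32 (adjusted p = 0.414, limma). RAB12, which sends the transferrin receptor to lysosomes, had 284, 339 and 561 on oocyte arrays and 570.0, 630.0 and 843 on GC arrays. Its groups did not overlap either, with PDG just above SECO, and the difference was -0.79. RAB34, known for its part in the formation of cilia, had 292, 163 and 388 on oocyte arrays and 331, 371 and 595 on GC arrays, a difference of -0.62 with overlapping groups. The RAB11 effector RAB11FIP5 had 421, 362 and 339.6 on oocyte arrays and 577, 557 and 425 on GC arrays, without overlap, whereas the difference of its second probe set detected on all arrays was 0.22. The sum of the smooth muscle markers was also higher on every GC array than on any oocyte array, and that of the stroma markers reached higher on GC arrays with overlap. Their part in the GC values of these genes was not tested.

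Other well known Rabs were close in both cell types or depended on the probe set. RAB6A of the Golgi had 2722, 3228 and 3236 on oocyte arrays and 2709.8, 4245 and 3578 on GC arrays. The 2 lowest of these 6 values, on PDO and PDG, were nearly equal, and the difference was -0.18. RAB1A and RAB2A, which act between the endoplasmic reticulum and the Golgi, gave differences of 0.0085 and 0.15. RAB5C of early endosomes gave -0.22, and RAB7A of late endosomes 0.13 at signals of 49.6, 93.9 and 53.98 on oocyte arrays and 51.4, 63.95 and 54.7 on GC arrays. The second RAB7A probe set, detected on 4 captured arrays where the first was on 3, had 57.6, 119.6 and 79.6 on oocyte arrays, against 32.7, 7.36 and 81.3 on GC arrays, a difference of 0.96 that rests on PDG and PMG values under the detection limit. RAB3A, which in the mouse takes part in cortical granule exocytosis, was detected on SECO and SECG only, with 50.7, 56.5 and 83.6 on oocyte arrays and 43.8, 37.2 and 54.3 on GC arrays.

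All 3 expressed Arf and all 4 Arl GTPases are given next. ARF4, an Arf of the Golgi, had 1047, 1345 and 2435 on oocyte arrays and 2331, 2524 and 2459 on GC arrays. The GC values hardly varied, the oocyte value of the secondary stage reached them, and the difference was -0.68 ± 0.35 (SE). ARF2, of the same class as ARF1, had 195, 139.6 and 324 on oocyte arrays and 396, 501 and 347 on GC arrays. Its groups did not overlap, with the secondary values closest, and the difference of -0.92 ± 0.38 was the largest among expressed traffic genes in the GC direction. ARF5 had 230.1, 264 and 116 on oocyte arrays and 91.7, 282 and 124 on GC arrays, apart only at the primordial stage. ARF1 itself was under the limit, with 87.2, 101 and 129 on oocyte arrays and 8.04, 99.96 and 113 on GC arrays.

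ARL1, which recruits golgin tethers to the trans-Golgi, had 1123, 670.2 and 573 on oocyte arrays and 765, 349.7 and 385 on GC arrays. The values were higher in oocytes at each stage and overlapped across stages, with a difference of 0.66. ARL6, the GTPase that brings the BBSome coat to the cilium base, had 169, 298 and 90.1 on oocyte arrays and 118, 108 and 62.5 on GC arrays, a difference of 0.73. Both secondary values were the lowest of their cell type. ARL2, a regulator of tubulin folding, gave 0.63, which came mainly from a low PMG value of 63.7 under the detection limit, and ARL3, which releases cargo in cilia, gave -0.17. ARL6IP1, a shaper of the endoplasmic reticulum, was brighter on all GC arrays, with 299, 356 and 404 on oocyte arrays and 499, 597 and 517 on GC arrays. ARL14EP, an effector of ARL14, had 7743, 6561 and 2149 on oocyte arrays and 4338, 3775 and 3037 on GC arrays, and its direction turned at the secondary stage.

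The subunits of an adaptor complex did not share 1 direction. Of the expressed AP-1 subunits, the large subunit AP1B1 was brighter in oocytes at each stage, with 607, 413 and 618 on oocyte arrays and 359, 309 and 537 on GC arrays. The large subunit AP1G1 lay the other way without overlap, with 341, 238 and 481 on oocyte arrays and 495, 567 and 619 on GC arrays. The small subunit AP1S2 had 1058, 947 and 544 on oocyte arrays and 2486, 1100.5 and 886 on GC arrays, a difference of -0.70. A second probe set of AP1S2 went the other way by 0.76, with 287, 128 and 97.1 on oocyte arrays and 120.4, 50.7 and 90.9 on GC arrays, and a second one of AP1G1 gave 0.024. The AP-2 subunits AP2B1 and AP2M1 gave differences of 0.18 and -0.31, with signs that varied over the stages.

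All 6 AP-3 subunits on the chip were detected on at least 1 captured array. AP3S1, the other small subunit beside AP3S2, had 865, 777 and 883 on oocyte arrays and 543, 414 and 837 on GC arrays. Oocytes were higher at each stage, least at the secondary one, and the difference was 0.54 ± 0.32 (adjusted p = 0.554, limma). The medium subunit AP3M1 had the opposite sign, -0.39, on its brightest probe set and 0.12 and -0.11 on the other ones. The large subunits AP3B1 and AP3D1 gave 0.10 and -0.13. Of AP-4, AP4M1 was detected on PDG alone and AP4S1 nowhere.

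Among the 15 sorting nexins 8 were expressed. SNX3, which works with retromer in returning the Wnt carrier to the Golgi, had 1481, 1631 and 1212 on oocyte arrays and 1369.5, 867 and 966 on GC arrays, a difference of 0.44. SNX17, which recycles LRP1 and integrins through retriever, had 214, 236 and 531 on oocyte arrays and 232, 754 and 534 on GC arrays. The difference of -0.57 came from the primary stage, and at the other stages the paired values were nearly equal. SNX2 and SNX5, curved-membrane nexins of the endosome, gave differences of 0.060 and 0.026, and SNX1 gave -0.12. SNX12, a relative of SNX3, had 1047, 788 and 2608 on oocyte arrays and 864, 1935 and 844 on GC arrays. Its highest values were on SECO and PMG, so that no direction held.

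The core of retromer is formed by VPS26, VPS29 and VPS35. VPS26A had 258, 311 and 312 on oocyte arrays and 365, 409.8 and 421 on GC arrays, all GC values above all oocyte values, with a difference of -0.42. VPS35 had 238, 238 and 322 on oocyte arrays and 358, 250.4 and 381 on GC arrays, lower in oocytes at each stage with overlap, a difference of -0.28. VPS29 did not follow, with 1969, 2299 and 1612 on oocyte arrays and 2258, 1694 and 1276 on GC arrays and a difference of 0.19. VPS26C of retriever was detected on all 6 arrays at 62.5, 82.2 and 71.03 on oocyte and 68.3, 111 and 71.5 on GC arrays, a difference of -0.15.

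Of the ESCRT subunits, VPS28 of ESCRT-I had 482, 342 and 454 on oocyte arrays and 199.7, 150.0 and 348 on GC arrays. The primordial and primary pairs were farthest apart, SECG was above PMO, and the difference was 0.88 ± 0.33 (adjusted p = 0.420, limma). VPS36 of ESCRT-II went the other way, with 104, 109 and 168 on oocyte arrays and 228, 199.7 and 213 on GC arrays. Its groups did not overlap, and the difference was -0.70. VPS4A, the ATPase that takes ESCRT-III filaments apart, had 831, 815 and 901 on oocyte arrays and 838, 597 and 1262 on GC arrays and no direction (-0.018). VPS25 of ESCRT-II and VPS37A of ESCRT-I gave differences of -0.098 and -0.054. Both had their lowest value on SECO (under the detection limit for VPS25), 31.1 for VPS25 and 86.8 for VPS37A.

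VPS33B, a fusion protein needed for granules of platelets, had 354, 459 and 352 on oocyte arrays and 242, 255 and 254 on GC arrays. The oocyte values were all above the GC values, which differed little from each other, and the difference was 0.59 ± 0.30 (adjusted p = 0.509, limma). VPS16, of the HOPS and CORVET core, gave 0.031. The other HOPS subunits VPS11 and VPS39 were detected on no captured array, VPS18 on PDG alone and VPS41 on 2 oocyte and 2 GC arrays. Of the GARP and EARP tethers only VPS51 was expressed.

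Follicle growth was followed from the primordial through the primary to the secondary stage. A difference of 2-fold or more between secondary and primordial follicles in both cell types was seen upward for 2 of 55 traffic genes, VPS51 and SNX17, where 3.49% of all expressed genes did so. Downward it was seen for RAB3IP alone, where 2.45% of all genes did so. No traffic gene passed limma, with 0% of 11642 probe sets called for primary minus primordial and 0% for secondary minus primordial. The smallest adjusted p of a traffic gene was 0.740 for the primary and 0.320 for the secondary stage. The median change to the secondary stage was 0.25 in oocytes and 0.050 in GC over the traffic genes, and -0.012 in oocytes and -0.030 in GC over all expressed genes. Within a cell type each stage difference is that of 2 single arrays and has no test.

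RAB3IP carried the smallest of these p values. In oocytes its signal at the primordial, primary and secondary stage was 771, 350.1 and 302, and in GC it was 363, 192 and 153. In both cell types the primordial array was the highest and the secondary one the lowest, with a secondary minus primordial difference of -1.30 in oocytes and -1.15 in GC and a mean of -1.23 ± 0.37 (adjusted p = 0.320, limma). ARL1 showed -0.95 in oocytes and -0.95 in GC, with most of the step between the primordial and the primary array. ARL6 showed -0.78 in oocytes and -0.74 in GC. RAB11A, which was brighter in oocytes like these, showed -0.81 in oocytes and -0.66 in GC. RAB8A had the other sign, 0.38 in oocytes and 0.41 in GC.

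AP1S2 had stage differences of -0.93 in oocytes and -1.47 in GC. In GC the step came between the primordial array at 2486 and the primary one at 1100.5, and in oocytes it came after the primary stage. ARL14EP had a stage difference of -1.84 in oocytes, but of -0.51 in GC. VPS25 had 194, 161 and 31.1 in oocytes, against 128, 107 and 109 in GC, and its SECO value was under the detection limit of 67.6, so that its stage difference in oocytes has no exact size. For both genes SECO was the lowest of the 6 captured arrays. VPS37A also had its lowest value there, with -1.56 in oocytes and 0.11 in GC.

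VPS51, a subunit shared by the GARP and EARP tethers, had, in the order of stages, signals of 86.1, 48.5 and 231 in oocytes, against 57.4, 143 and 217 in GC. Both secondary values were the highest of their cell type, and the differences were 1.24 in oocytes and 1.62 in GC, with a mean of 1.43 ± 0.49 (adjusted p = 0.361, limma). The value of PMO, and no other of the 6, was under the detection limit of its array. SNX17 had 1.23 in oocytes and 1.13 in GC, although GC were highest at the primary stage. RAB12 had 0.94 in oocytes and 0.55 in GC, and RAB11B 0.61 in oocytes and 0.85 in GC. Both had a higher signal at each later stage in each cell type. ARF4 had 1.20 in oocytes and only 0.077 in GC. VPS16 had 0.70 in oocytes and 0.60 in GC, but its lowest values, 94.2 on PMO and 56.2 on PMG, were those of the primary stage, and the one on PMG was under the detection limit. RAB3D, a Rab of secretory granules chosen after its values were seen, was under the limit for expressed genes and had 46.5, 76.03 and 144 in oocytes, against 24.3, 93.7 and 91.5 in GC. Its primordial arrays, PDO and PDG, were under the detection limit.

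**Figure D3:**
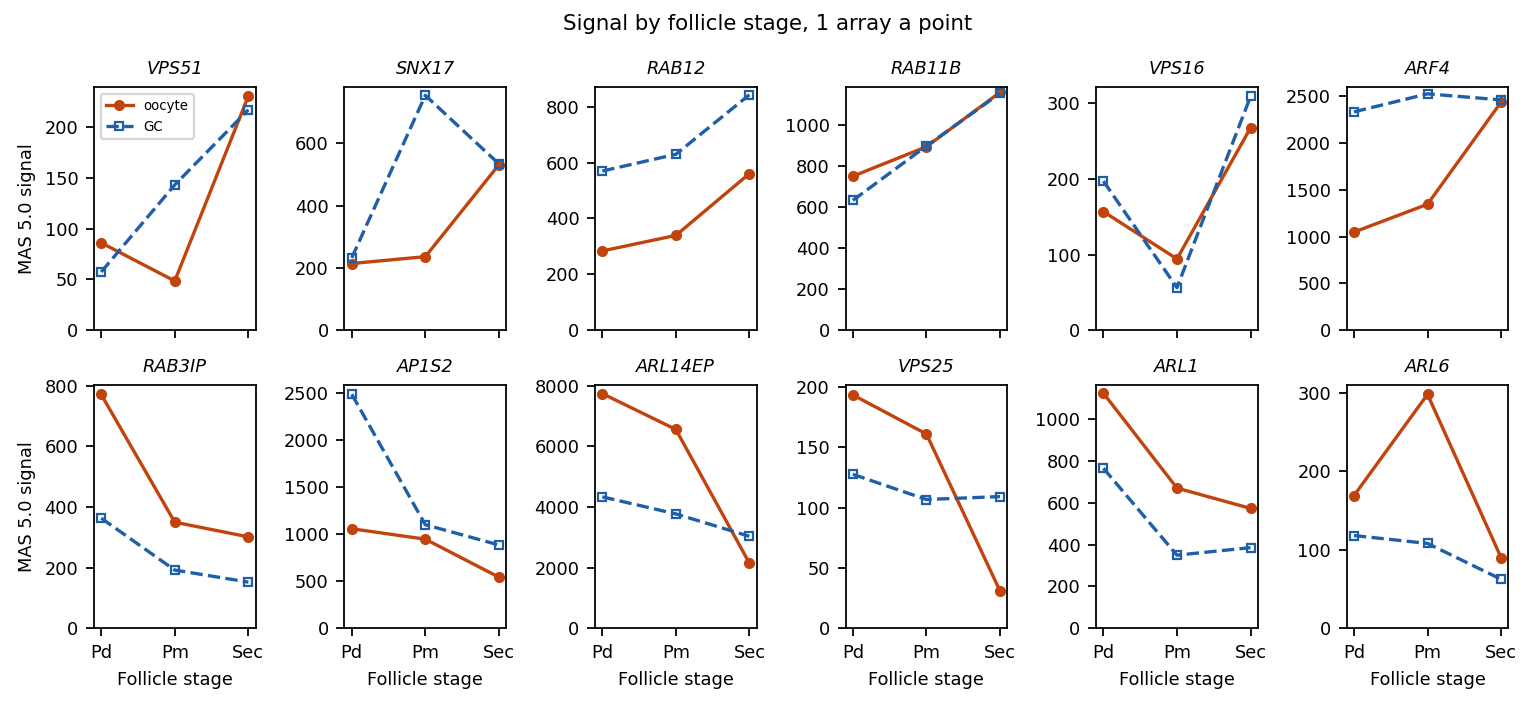
MAS 5.0 signal (linear axis from 0, 1 scale a panel) of 12 traffic genes at the primordial (Pd), primary (Pm) and secondary (Sec) stage, 1 array a point, in oocytes (filled, solid line) and GC (open, dashed line). Among expressed genes with 1 sign in both cell types, the upper row holds those with the largest mean increase to the secondary stage and the lower row those with the largest decrease, and RAB3IP, ARL1 and ARL6 are above GC in oocytes at each stage.

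Captured cells and whole ovine fetal ovary were set side by side within protocol P3. Of the 55 expressed traffic genes, 9 had all 6 captured arrays above the ovary and a mean difference of at least 2-fold, where 7.78% of all expressed genes did so. The other direction held for 3, where 9.84% of all genes did so. The limit for expressed genes and the choice of probe set used the captured arrays only. Genes bright mainly on the ovary were thus left out, such as ARF1, with 8.04 to 129 on the captured arrays and 380 on the ovary. With no limit on the signal 14 of 117 were higher (5.06% of all genes) and 9 lower (8.33%). These counts therefore give no direction. The median difference, captured cells minus ovary, was 0.063 for the traffic genes and 0.092 for all genes. Tissue, age and the amount of starting RNA cannot be told apart here, and the ovary was 1 array, so there was no test. The signals of the captured arrays also came with 6 or more decimals and those of the ovary with 1. Whether both were exported alike is not known.

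RAB6A had 2709.8 to 4245 on the captured arrays against 887 on the P3 ovary, the largest of these differences (1.85 on the log2 scale, as for the following). AP3S1 had 414 to 883 on the captured arrays against 226 on the ovary (1.54). RAB3IP had 153 to 771 against 97.4 (1.50), and ARL6 had 62.5 to 298 against 35.9 on the ovary, where it was under the detection limit and the difference has no exact size. For these genes the ovary was below oocytes and GC alike. SNX12 (1.31), ARL1 (1.28), VPS29 (1.25), SNX2 (1.18) and RAB11A (1.03) made up the 9.

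In the other direction AP3D1, the large delta subunit of AP-3, had 138 to 273 on the captured arrays against 479.9 on the ovary (-1.29). This was opposite to AP3S1 of the same complex. VPS28 had 150.0 to 482 against 762 (-1.27). VPS51 had 48.5 to 231 against 251. Its lowest value, on PMO, was under the detection limit, so that its difference has no exact size. RAB8A and RAB34 were also highest on the ovary, at 407 and 614, with differences under 2-fold (-0.93 and -0.84). AP3S2, at 46.8 on the P3 ovary, lay between its oocyte and GC values.

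**Figure D4:**
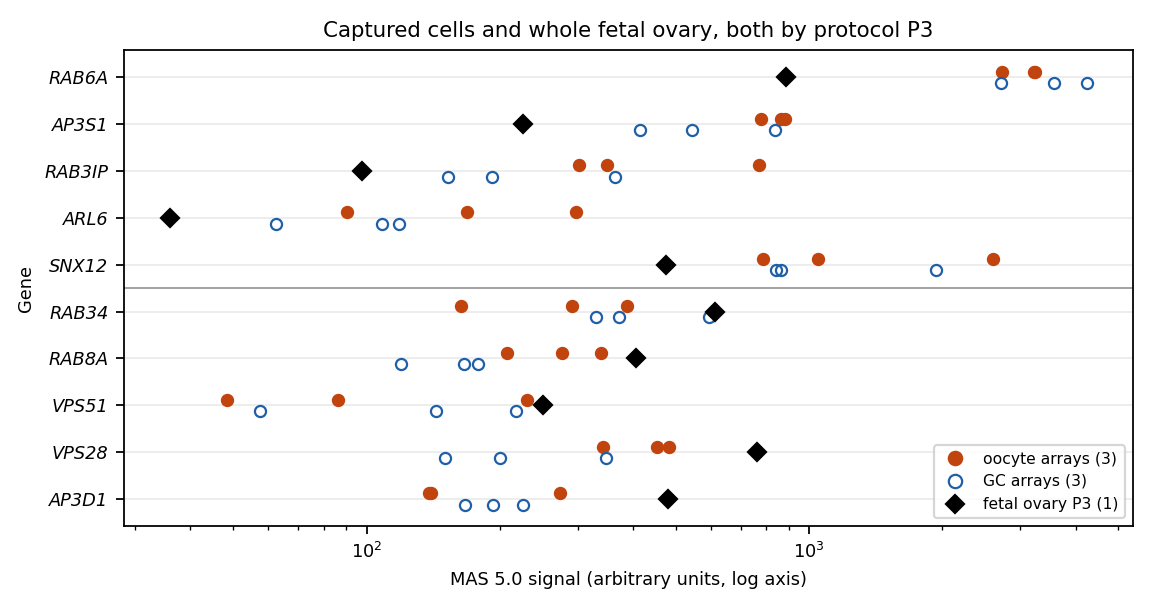
MAS 5.0 signal (log axis, arbitrary units) of 10 traffic genes on the 3 oocyte arrays (filled circles), the 3 GC arrays (open circles) and the ovine fetal ovary (diamond), all labelled by protocol P3. The ovary lies below all 6 captured arrays for the upper 5 genes and above all 6 for the lower 5.

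RNA of ovine fetal ovary was labelled by the 3 protocols, to compare the labelling on 1 tissue. Genes were counted here when the mean of log2(signal + 20) of the arrays compared reached that of a signal of 100. With P3 against P1, 9 of 66 traffic genes were at least 2-fold higher, where 21.5% of all 3776 genes were, and 18 were at least 2-fold lower, where 16.9% of all genes were. With P2 against P1, 11 of 67 were at least 2-fold higher (16.9% of all 3836 genes) and 15 at least 2-fold lower (14.5% of all genes). The median differences were -0.20 for P3 minus P1 and -0.074 for P2 minus P1 over the traffic genes, and 0.13 in both cases over all genes. P3 and P2 share the P1 array. The absolute difference between P3 and P1 had a median of 0.77 over the 55 expressed traffic genes, against 0.45 between oocyte and GC arrays of the same stage and 0.38 between 2 stages of a cell type. Over all 3353 expressed genes the same medians were 0.73, 0.45 and 0.43. The typical difference between captured cells was thus smaller than that between these labelling protocols, for the traffic genes as for all genes. All captured arrays were labelled by P3.

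SNX6, a curved-membrane nexin, had 17.5 with P3, 32.9 with P2 and 344 with P1. RAB2A had 122, 132 and 1092 with P3, P2 and P1, and AP2S1, the small subunit of AP-2, had 85.9, 134 and 582. ARL6 had 35.9, 119.7 and 339. For these 4 genes both double amplifications lay below the single cycle. The P3 minus P1 difference was -2.97 for RAB2A and -2.51 for AP2S1. SNX6 with P3 and P2 and ARL6 with P3 were under the detection limit, so that theirs have no exact size.

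VPS4A had 1441, 789 and 204 with P3, P2 and P1, and RAB8A had 407, 147 and 47.2. VPS33B had 352, 179 and 97.4, and AP1B1 had 800, 305 and 189. For these 4 genes P3 was highest and P1 lowest, with P3 minus P1 differences of 2.71, 2.67, 1.66 and 1.97. The second RAB8A probe set had the opposite order, 172 with P3, 314 with P2 and 325 with P1.

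**Figure D5:**
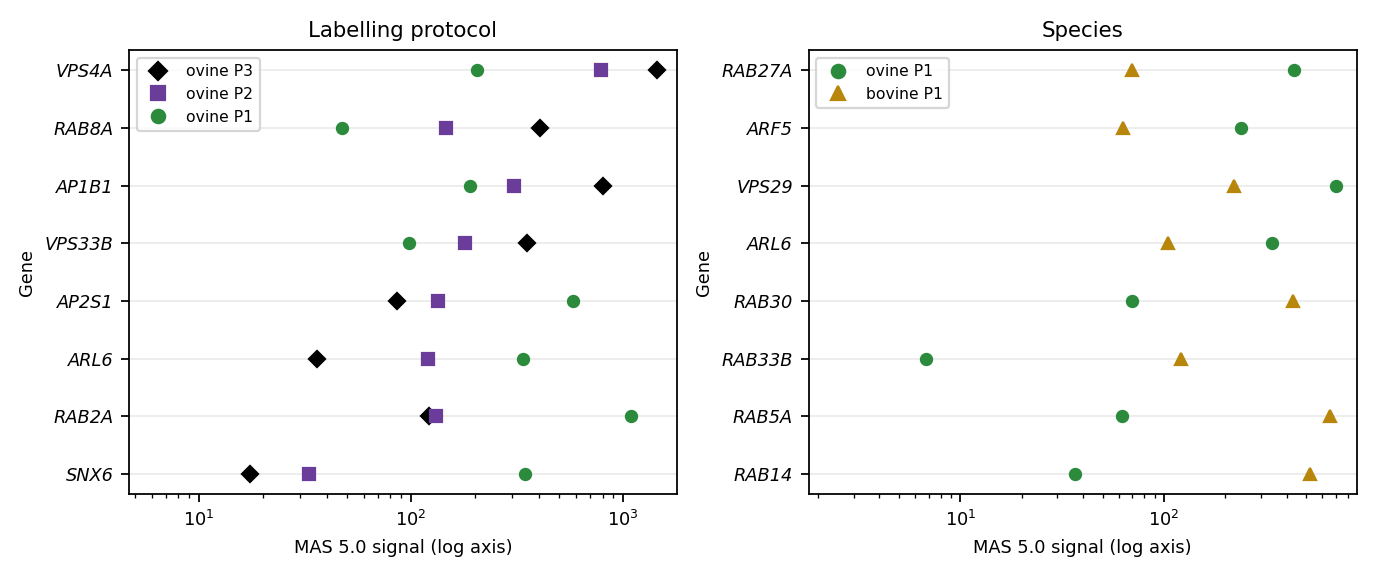
MAS 5.0 signal (log axis, arbitrary units) of the traffic genes with the largest differences between labelling protocols of ovine fetal ovary (left, P3, P2 and P1) and between ovine and bovine fetal ovary labelled by P1 (right), 1 array a point. RAB8A and VPS4A are highest with P3, SNX6 and RAB2A with P1, and RAB14 and RAB5A lie far to the left for ovine RNA.

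Ovine and bovine fetal ovary were compared with P1 to see how sheep RNA binds to bovine probes. Of 71 traffic genes 10 were at least 2-fold higher with ovine RNA, where 16.5% of all 4023 genes were, and 9 at least 2-fold lower, where 15.2% of all genes were. The median difference, ovine minus bovine, was 0.38 for the traffic genes and 0.22 for all genes. RAB14, a Rab of Golgi and endosomes, had 36.7 with ovine and 524 with bovine RNA. RAB5A, the classical Rab of early endosomes, had 62.1 with ovine and 654 with bovine RNA. RAB33B had 6.8 with ovine RNA, under the detection limit, and 122 with bovine RNA, and RAB30 had 69.3 with ovine and 428 with bovine RNA. On the captured arrays RAB33B was detected on none, RAB5A on 2, RAB14 on 4 and RAB30 on all 6, where its highest signal was 109.7. Species, age and the match of the probes cannot be told apart in these values.

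RAB27A had 435 with ovine RNA and 69.8 with bovine RNA, the largest difference in the other direction (2.34). ARF5 had 239.5 with ovine and 62.6 with bovine RNA, VPS29 had 702 with ovine and 220.4 with bovine RNA, and ARL6 had 339 with ovine and 104 with bovine RNA. All 4 were brighter with sheep RNA, although the probes are bovine.

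Several probe sets for a gene were available for 34 of the 117 genes. The sign of oocyte minus GC was the same on all of them for 17. For 5 genes more than 1 probe set was detected on at least 4 captured arrays, namely AP1G1, AP1S2, AP3M1, RAB11FIP5 and RAB8A, and the sign was shared only for RAB8A. The brightest expressed genes with 1 probe set, among them RAB11A, SNX2, ARF4, VPS29, SNX3 and SNX12, have no such second reading. Over the 6 captured arrays the highest signal of an expressed traffic gene was 1.43 to 4.58 times its lowest, with a median of 2.08, against a median of 2.29 for all expressed genes.

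Regulators and partners of these proteins were counted from lists of other gene names. Of 45 Rab regulators (exchange factors, activating proteins and effectors), 28 were on the chip and 11 expressed, 4 brighter in oocytes at every stage (GDI2, RABGAP1L, TBC1D8 and DENND4A) and 4 in GC (RABEP2, TBC1D20, TBC1D23 and GOLGA2). Of 36 Arf regulators 23 were on the chip and 9 expressed, and only ARFGEF1, an exchange factor for ARF1 at the trans-Golgi, was on one side at every stage, that of oocytes. Of 37 vesicle coat genes 30 were on the chip and 17 expressed, with 3 on each side. COPB2, ARCN1 and COPZ2, all subunits of the COPI coat that Arf recruits, were the ones brighter in GC, and CLTA, SAR1A and NECAP2 those brighter in oocytes. Of 48 SNARE and fusion genes 36 were on the chip and 18 expressed, 7 brighter in oocytes at every stage and 4 in GC. Of 23 ESCRT genes without a VPS name 21 were on the chip and 12 expressed, 5 of them brighter in oocytes at every stage (TSG101, STAM2, SNF8, CHMP2A and CHMP3) and 0 in GC. TSG101 binds VPS28 in ESCRT-I, and SNF8 binds VPS36 and VPS25 in ESCRT-II. Of 31 tethering genes 23 were on the chip and 8 expressed, with TRAPPC2 brighter in oocytes at every stage, and of 16 sorting receptors 13 were on the chip and 11 expressed, with SORL1, KDELR1 and SCARB2 brighter in GC. The background for such counts is the 21.6% and 19.1% of all expressed genes given above.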

How the data were processed

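The deposited intensities are MAS 5.0 signals on a linear scale. The authors scaled every array to a common target of 100 in GCOS and applied no normalization between arrays, and the version of GCOS is not given in the sources used here. Of 24016 probe sets without the 112 controls, 13292 had 1 symbol, 86 several and 10638 none, and only those with 1 symbol were named. For 3 probe sets a traffic gene was joined with another gene, and these were left out. Of the 117 symbols 114 were in the sheep RefSeq table, and all were kept as the chip annotation spells them.

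Detection on an array was given to its brightest probe sets, as many as match the share of present calls listed for that array in the study's quality table. A constant of 20 was added and log2 taken. limma 3.58.1 in R 4.3.3 was run on the 11642 probe sets detected on at least 1 captured array, with stage and compartment as terms, Benjamini-Hochberg adjustment and a threshold of 0.05. The number of prior degrees of freedom was 5.43. The script was tested on simulated data. Counts and medians were made in Python 3.11.15, and figures with matplotlib 3.10.9. The pools were not repeated, and the model takes out the mean of each stage and of each cell type. The p values and SE rest on a moderated variance. It joins how unevenly the oocyte minus GC difference of a gene ran over the 3 stages with the variance of all probe sets tested. The first part had 2 degrees of freedom and the second 5.43, so they do not measure the unevenness of the gene alone.

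Genes named are AP3S2, the 8 brightest, among expressed genes the 10 largest oocyte to GC differences in each direction with 1 sign at every stage, the 6 largest stage differences in each direction with 1 sign in both cell types, the 5 largest against the P3 ovary in each direction, the 4 largest of P3 against P1 and of ovine against bovine in each direction among genes with a signal of at least 100 on an array compared, and their relatives of the same name stem or complex. RAB3A, RAB3D, RAB4B, RAB27A, RAB31, RAB7A, ARL2, VPS26A, VPS35, VPS37A and other members named to complete a family were picked with their values in view. The genes, lists and tests were chosen with earlier results of these data known.

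Alternatives were a constant of 1 or 50, quantile normalization, the mean of all probe sets, no limit or a limit of 200 on the signal, other detection rules and model terms, and leaving out each stage.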

Additional observations from a re-analysis of the deposited data

Results flagged for a closer look

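Among the 55 expressed traffic genes, a pair (RAB31 and SNX7) had opposite stage differences of at least 0.5 on the log2 scale in the cell types. RAB31, a Rab between trans-Golgi and endosomes, had 184, 168 and 314 at the primordial, primary and secondary stage in oocytes, against 271, 257 and 185 in GC. Secondary minus primordial was 0.71 in oocytes and -0.51 in GC. SNX7, a sorting nexin of the endosome, had 113, 178 and 196 in oocytes, against 272, 224 and 148 in GC, with 0.70 in oocytes and -0.80 in GC. Each value is the difference of 2 single arrays, and the difference between the cell types was not tested.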

How the results depend on the processing

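The number of traffic genes with an adjusted p under 0.05 in limma was 0 in all settings run. For oocytes against GC, 3 to 16 had an unadjusted p under 0.05 (limma). This was 3.23% to 17.2% of the traffic genes tested, against 7.46% to 14.1% of all probe sets tested. The counts of genes brighter in 1 cell type moved with the choice of probe sets and of genes. The share of all genes counted the same way stands in brackets. With the mean of all probe sets, 10 of 47 expressed genes were brighter in GC at every stage (18.2%) and 5 had GC without overlap above oocytes (8.30%), and 4 of 57 were 2-fold higher with P3 than with P1 (17.0%) and 5 of 58 with P2 than with P1 (11.5%). With no limit on the signal (117 genes), 25 were brighter in oocytes at every stage (18.5%), 8 of them without overlap (7.56%). In GC 23 were brighter at every stage (14.5%), 10 of them without overlap (6.08%). At the secondary stage 4 were 2-fold higher in both cell types (2.95%). In this setting 14 were higher (5.06%) and 9 lower (8.33%) in captured cells than in the P3 ovary, 24 were lower with P2 than with P1 (12.1%), 17 higher (10.5%) and 17 lower (13.9%) with ovine than with bovine RNA, and the median oocyte minus GC difference was 0.052, against 0.050 over all genes. With a limit of 200 (36 captured, 44 ovary genes), these were 1 at the secondary stage (2.71%), 1 lower in captured cells (7.58%), 9 lower with P2 (13.8%), and 4 higher (18.1%) and 5 lower (13.1%) with ovine RNA. Quantile normalization gave 5 genes with oocytes above GC without overlap (9.24%).

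Leaving out 1 stage gave 15 to 17 genes brighter in oocytes (28.8% to 38.1% of all genes) and 19 to 23 in GC (26.2% to 31.0%) at every stage left, 9 to 13 with oocytes (17.1% to 27.9%) and 13 to 18 with GC (16.6% to 22.4%) on top without overlap, where 2 arrays against 2 separate more easily, and a median of -0.12 to 0.016.

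Of the single oocyte minus GC differences, 272 alternatives kept the sign and 15 did not. With the mean of probe sets AP1S2 was 0.026 and VPS4A 0.12, and with quantile normalization VPS4A was 0.0016. Leaving out 1 stage gave a range of -0.24 to 0.21 for VPS4A, -0.20 to 0.78 for RAB14, -0.093 to 0.39 for RAB2A, -0.082 to 0.060 for RAB30, -0.50 to 0.94 for SNX12, -0.045 to 0.19 for SNX2 and -0.41 to 0.52 for VPS25, with the turned sign without the secondary stage. The range was -0.33 to 0.016 for AP3D1, -0.25 to 0.19 for VPS16 and -0.59 to 0.27 for VPS51, turned without the primary stage, and -0.085 to 0.54 for ARF5 and -0.21 to 0.39 for RAB5A, turned without the primordial stage. The cause was not tested. No paired analysis was possible because the labels give no replicate numbers, beyond the pairing of cell types by stage that the model holds.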

Other observations

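Some traffic genes under the limit for expressed genes also had 1 sign at every stage, on either side. Without the limit, 25 of the 117 genes were brighter in oocytes at every stage and 23 in GC. Of all genes 18.5% and 14.5% were so. VPS39 and VPS26B, detected on no captured array, had every GC value above every oocyte value. VPS11, also detected on none, had every oocyte value above every GC value. All captured values of these genes were under the detection limit, so their order cannot be told from background. The genes given next were brighter in oocytes at every stage. AP2S1, the small subunit of the endocytic adaptor AP-2, had 63.7, 127 and 102 on oocyte arrays and 21.95, 78.2 and 58.01 on GC arrays, where it was detected on 2. VPS72, a subunit of chromatin remodelling complexes, had 111, 128 and 115 on oocyte arrays and 65.9, 66.3 and 88.9 on GC arrays, without overlap. RAB3C, of the family of secretory RAB3 proteins, had 57.2, 57.8 and 46.4 on oocyte arrays and 25.2, 20.4 and 26.6 on GC arrays, but was detected on PDO alone. VPS53 of the GARP and EARP tethers was detected on none, at 40.9, 59.9 and 22.1 on oocyte arrays and 2.86, 26.2 and 7.096 on GC arrays.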
